A study of Homo sapiens with 30 samples.

Results

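Epidermal kallikreins and squamous serpins were examined as 10 of the 26251 genes with a single locus in the expression table of the series. They were chosen by name and with earlier results of these data known. The members were 6 kallikreins (KLK5, KLK6, KLK7, KLK8, KLK10 and KLK11) and 4 clade B serpins (SERPINB2, SERPINB3, SERPINB4 and SERPINB13), and all were in the table. The study asked how PI3K/AKT and Ras/ERK signaling change what the ETS transcription factor ERG does in prostate epithelial cells. The cells were RWPE1, an immortalised line from normal prostate epithelium, carrying retroviral vectors and selected for them. RWPE1-vector carried empty pQCXIH and pBabe-puro, and RWPE1-ERG carried pQCXIH-ERG (uniprot isoform 1) with empty pBabe-Puro. RWPE1-mAKT carried empty PQCXIH with pBabe-Puro-Myr-AKT, which encodes myristoylated AKT (mAKT), a form of the kinase held at the membrane and active without growth factor. RWPE1-ERG/mAKT carried pQCXIH-ERG with pBabe-Puro-Myr-AKT. The mRNA level of each line was a single FPKM (fragments per kilobase of transcript, scaled to library depth) pooled by the authors over 3 libraries, so no spread between libraries, standard error or test can be given, and a difference is called higher or lower here only as a pooled value. Chromatin was described by 1 peak list per line and assay: ATAC-seq for open chromatin, ERG and ERK2 ChIP-seq for bound sites, and H3K27me3 ChIP-seq for the repressive histone mark laid down by Polycomb. H3K27me3 was also listed for RWPE1-ERG S96E, in which ERG carries a phosphomimetic change at a site that ERK phosphorylates, and ERG also for VCaP, a prostate cancer line with a TMPRSS2-ERG fusion, treated with DMSO. For H3K27me3 and ERK2 ChIP-seq the lines carried a pQCXIH vector alone (empty, ERG or ERG S96E), and the sample labels of those libraries name no pBabe-Puro construct. The ERG transgene separated the lines as labelled, with an FPKM of 0.264 in RWPE1-vector, 358 in RWPE1-ERG, 0.435 in RWPE1-mAKT and 328 in RWPE1-ERG/mAKT. The FPKM of AKT1 was 58.7, 64.2, 156 and 281 in the same order, so the lines that carry mAKT did not have the same AKT1 level. The kallikreins lay on the minus strand of chr19:51446559-51531290 (hg19) and the serpins within chr18:61254534-61571124, SERPINB13 and SERPINB2 on the plus strand and SERPINB4 and SERPINB3 on the minus strand.

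Kallikreins are secreted serine proteases encoded side by side in a single cluster. In stratified epithelium KLK5 and KLK7 cleave the junction proteins that hold dead surface cells together, and KLK5 can activate other kallikreins. Clade B serpins are mostly intracellular protease inhibitors, and several of them are made by squamous keratinocytes as these differentiate. RWPE1 is a prostate line and not skin. All 7 epithelial markers had an FPKM of 1 or more in each line, the keratins KRT5, KRT14, KRT8 and KRT18 among them, and KRT5 was 3126 in RWPE1-vector. The prostate luminal kallikreins KLK2 and KLK3 were listed at 0 in every line. Of the 6 fibroblast markers only COL1A1 reached 1, at 1.78 to 2.18, and of 4 endothelial and 4 leukocyte markers only CD14 did, at 1.09 in RWPE1-ERG/mAKT. KRT5 and KRT14 were lower in RWPE1-ERG, at 1170 and 700, against 3126 and 2936 in RWPE1-vector, while KRT8 and KRT18 were higher there, at 1769 and 1843 against 622 and 817. So 2 of the 7 markers were 2-fold or more lower with ERG alone and 2 higher, and their part in the results that follow was not tested.

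Promoters of KLK5, KLK6, KLK10 (1 of its entries) and SERPINB13 are shown to be read beside the chromatin results at gene starts. Those results used the locus starts and not these sequences. The SERPINB3 and SERPINB4 pair is shown because its likeness limits how far the 2 genes can be told apart. Promoters of KLK7, KLK11 and SERPINB2 were matched but are not printed, and not every KLK7 entry held a marked motif. RefSeq promoters (GRCh38.p14, 300 bases around the start) were matched for 9 of 10 members, with none for KLK8, and each was found once by its exact sequence in GRCh37, the build of the files, whose coordinates are given here. Each is written 5′ to 3′ along the gene, with capitals marking the ETS core AGGAAG or CGGAAG, the AP-1 site TGACTCA and the TATAAA box, on either strand.
KLK5 promoter, chr19:51456245-51456544, minus strand: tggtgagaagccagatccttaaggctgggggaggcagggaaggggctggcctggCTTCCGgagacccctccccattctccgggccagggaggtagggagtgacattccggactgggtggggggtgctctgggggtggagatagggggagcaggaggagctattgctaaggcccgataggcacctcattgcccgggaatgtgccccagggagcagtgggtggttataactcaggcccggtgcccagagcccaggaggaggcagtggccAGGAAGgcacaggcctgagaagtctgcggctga
KLK6 promoter, chr19:51472798-51473097, minus strand: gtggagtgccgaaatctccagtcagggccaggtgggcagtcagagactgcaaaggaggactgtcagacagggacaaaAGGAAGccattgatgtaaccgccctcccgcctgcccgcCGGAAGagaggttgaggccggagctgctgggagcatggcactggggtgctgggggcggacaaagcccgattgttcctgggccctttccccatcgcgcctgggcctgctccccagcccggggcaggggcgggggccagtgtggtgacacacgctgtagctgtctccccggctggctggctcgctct
KLK10 promoter, chr19:51523068-51523367, minus strand: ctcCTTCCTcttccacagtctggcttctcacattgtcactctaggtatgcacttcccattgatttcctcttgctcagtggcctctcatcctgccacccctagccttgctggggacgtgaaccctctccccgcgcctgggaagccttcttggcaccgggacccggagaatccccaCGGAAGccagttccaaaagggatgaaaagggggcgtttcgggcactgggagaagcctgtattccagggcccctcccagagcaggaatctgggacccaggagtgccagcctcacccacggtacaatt
SERPINB13 promoter, chr18:61254327-61254626, plus strand: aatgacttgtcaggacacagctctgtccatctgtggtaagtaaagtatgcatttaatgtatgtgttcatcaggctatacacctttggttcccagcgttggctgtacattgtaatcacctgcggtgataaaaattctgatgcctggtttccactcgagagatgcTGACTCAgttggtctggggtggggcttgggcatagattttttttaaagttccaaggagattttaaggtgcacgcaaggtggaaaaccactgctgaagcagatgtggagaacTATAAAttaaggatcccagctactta
SERPINB3 promoter, chr18:61329078-61329377, minus strand: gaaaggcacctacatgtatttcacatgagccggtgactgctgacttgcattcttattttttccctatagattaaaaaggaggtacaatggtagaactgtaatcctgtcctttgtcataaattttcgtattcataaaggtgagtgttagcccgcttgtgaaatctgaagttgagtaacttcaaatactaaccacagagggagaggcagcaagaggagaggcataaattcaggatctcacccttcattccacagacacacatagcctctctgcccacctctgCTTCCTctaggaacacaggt
SERPINB4 promoter, chr18:61311441-61311740, minus strand: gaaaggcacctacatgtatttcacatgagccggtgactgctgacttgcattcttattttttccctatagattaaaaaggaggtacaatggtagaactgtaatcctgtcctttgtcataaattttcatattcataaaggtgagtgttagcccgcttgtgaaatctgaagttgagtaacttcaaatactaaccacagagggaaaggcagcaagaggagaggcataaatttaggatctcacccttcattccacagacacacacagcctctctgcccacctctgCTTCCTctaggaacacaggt

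AGGAAG was found in promoters of 8 of the 9 members, against 33.6% of 35116 RefSeq promoters. A member with more than 1 entry counted once if any entry held it, while the shares of promoters count each entry, so the units differ. KLK7 and KLK10 did not hold AGGAAG in all of their entries. CGGAAG was found for 3 (KLK5, KLK6 and KLK10), against 19.5% of promoters. TGACTCA was found for 1 (SERPINB13), against 4.95%, and TATAAA for 2 (SERPINB2 and SERPINB13), against 11.5%. The SERPINB3 and SERPINB4 promoters differed at 4 of 300 bases, an identity of 98.7%. Their longest coding transcripts shared 24.9% of 50-base words with each other, so the split of reads between them was uncertain. KLK8 shared 47.2% of its 50-base words with transcripts annotated to its neighbour KLK9 or to an unnamed gene, and SERPINB2 shared 23.7% with an unnamed overlapping transcript. The other members shared less than 1% each with other genes.

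The kallikreins were low in every line. In RWPE1-vector only KLK8, which encodes neuropsin, reached an FPKM of 1, at 1.77. In RWPE1-ERG, KLK8 and KLK6 did, in RWPE1-mAKT 4 of 6, and in RWPE1-ERG/mAKT 5 of 6. The summed FPKM of the 6 kallikreins was 3.30 in RWPE1-vector, 3.49 in RWPE1-ERG, 12.9 in RWPE1-mAKT and 15.1 in RWPE1-ERG/mAKT, so both lines with mAKT were above both lines without it. In such bulk values, fewer cells that make a transcript and less of it per cell cannot be told apart. The make-up of that sum differed between the first pair of lines, in which KLK6 made up 13.7% in RWPE1-vector and 48.8% in RWPE1-ERG. KLK5 made up 29.9% in RWPE1-mAKT and 9.66% in RWPE1-ERG/mAKT.

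**Figure D1:**
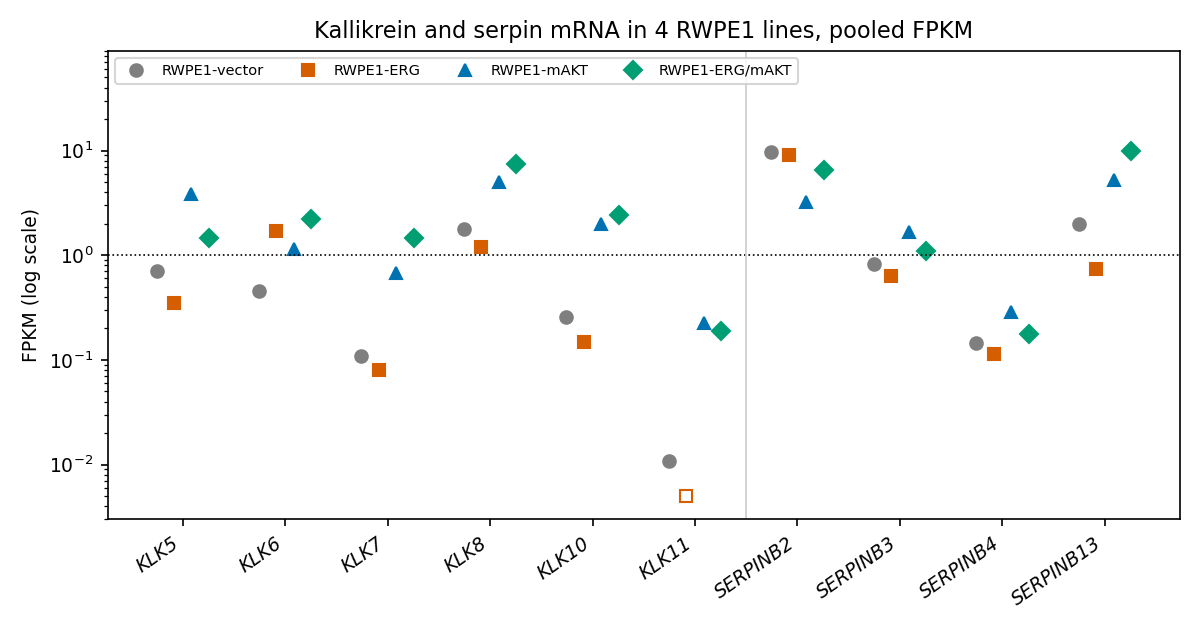
Pooled FPKM of each of the 10 genes (log axis) in 4 RWPE1 lines, 1 point per line with no error available; the dotted line marks an FPKM of 1 and the open square shows KLK11 listed at 0 in RWPE1-ERG. For 5 of the 6 kallikreins both lines with mAKT sit above both lines without it, KLK6 is the exception, and SERPINB2 is lowest in RWPE1-mAKT at 3.23.

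KLK5, the trypsin-like protease that can start the kallikrein cascade, had an FPKM of 0.700 in RWPE1-vector, 0.348 in RWPE1-ERG, 3.87 in RWPE1-mAKT and 1.46 in RWPE1-ERG/mAKT. It was highest with mAKT alone and lower with ERG both without mAKT (2.01-fold) and with it (2.65-fold). KLK7, its chymotrypsin-like partner in skin, had an FPKM of 0.108, 0.0803, 0.675 and 1.45 in the same order, and so was highest where KLK5 was not. KLK8 had 1.77, 1.21, 5.01 and 7.38, the highest levels among the kallikreins with mAKT. Its neighbour KLK9, with 1.03, 0.581, 2.26 and 1.00, was highest in RWPE1-mAKT.

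KLK6, a trypsin-like protease made by brain, breast and skin, had an FPKM of 0.452 in RWPE1-vector, 1.70 in RWPE1-ERG, 1.16 in RWPE1-mAKT and 2.20 in RWPE1-ERG/mAKT. It was the only member that was higher in RWPE1-ERG than in RWPE1-vector. KLK10 had 0.259, 0.147, 2.00 and 2.43, with the levels of the pair of mAKT lines close to each other and far from the other 2. KLK11 stayed under 1 in all lines, at 0.0109, 0 (as listed), 0.224 and 0.190, and its ratios rest on values too low to be read.

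SERPINB2, also called plasminogen activator inhibitor 2, had an FPKM of 9.67 in RWPE1-vector, 9.04 in RWPE1-ERG, 3.23 in RWPE1-mAKT and 6.52 in RWPE1-ERG/mAKT. Of the 10 genes it was the only one lower in RWPE1-mAKT than in RWPE1-vector. SERPINB13, an inhibitor of lysosomal cathepsins first found in keratinocytes, had 2.00, 0.741, 5.21 and 9.87, a range of 13.3-fold between the lowest and the highest line. SERPINB3 and SERPINB4, the squamous cell carcinoma antigens, had 0.834, 0.627, 1.68 and 1.10 and 0.145, 0.114, 0.285 and 0.176. Both were highest in RWPE1-mAKT and lowest in RWPE1-ERG, which is a statement about a pair that shares reads. The leading serpin differed between lines with and without mAKT: SERPINB2 made up 76.5% of the summed serpin FPKM in RWPE1-vector and 85.9% in RWPE1-ERG, and SERPINB13 made up 50.1% in RWPE1-mAKT and 55.9% in RWPE1-ERG/mAKT.

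The first comparison asked what mAKT alone did. Of the 10 members 9 were higher in RWPE1-mAKT than in RWPE1-vector, and the tenth, SERPINB2, was 2.99-fold lower. Of those 9, KLK7, KLK11 and SERPINB4 stayed under 1 in both lines, and the share of all genes that were higher was not taken. A gene was counted where its FPKM was 1 or more in either line of a pair, and called where the lines differed by 2-fold or more. Of 7 members counted, 6 were 2-fold or more higher (KLK5, KLK6, KLK8, KLK10, SERPINB3 and SERPINB13), against 1.60% of 12262 genes, and 1 was lower, against 1.35%. Of those 7, 4 reached 1 in only 1 of the lines, so that part of their difference is built into the filter and the count is a description. The ratios were 5.52-fold for KLK5, 7.73-fold for KLK10, 2.83-fold for KLK8 and 2.61-fold for SERPINB13. KLK7, 6.26-fold higher, stayed under 1 in both lines. The median log2 ratio was 1.38 over the 7 and 1.44 over all 10 members, against 0.02 over all genes counted. Under a filter on the mean over the 4 lines, chosen after seeing the data, 6 members were 2-fold or more higher. That mean includes the lines with mAKT, so this filter also selects on high values there and adds no support.

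The second comparison asked what ERG alone did. Of the 10 members 9 were lower in RWPE1-ERG than in RWPE1-vector, with KLK11 listed at 0, and only KLK6 was higher. Of those 9 only KLK8, SERPINB2 and SERPINB13 reached 1 in either line, and the share of all genes that were lower was not taken. Of 4 members counted, KLK6 was 3.76-fold higher, against 5.16% of 12372 genes 2-fold or more higher. SERPINB13 was 2.70-fold lower, against 2.00% of genes. These 2 were also the members that reached 1 in only 1 of the lines. KLK8 was 1.47-fold lower, under the threshold, and SERPINB2 differed by 1.07-fold. The median log2 ratio was -0.32 over the 4 and -0.43 over the 9 members above 0 in both lines, against -0.01 over all genes.

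The third comparison asked what ERG did in cells with mAKT, RWPE1-ERG/mAKT over RWPE1-mAKT. Of 8 members counted, KLK7 was 2.15-fold and SERPINB2 2.02-fold higher, against 3.08% of 12348 genes, and KLK7 was the 1 member that reached an FPKM of 1 in only 1 of these lines. KLK5 was 2.65-fold lower, against 1.38% of genes. KLK6 and SERPINB13 were each 1.89-fold higher, just under the threshold, while SERPINB3 was 1.53-fold lower. SERPINB4 was not counted, and its FPKM of 0.285 and 0.176 was too low for its ratio to be read. AKT1 itself was higher in RWPE1-ERG/mAKT than in RWPE1-mAKT, 281 against 156, and its part in these ratios was not tested.

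The fourth comparison asked what mAKT did in cells with ERG, RWPE1-ERG/mAKT over RWPE1-ERG. Of 8 members counted, 5 were 2-fold or more higher (KLK5, KLK7, KLK8, KLK10 and SERPINB13), against 3.16% of 12441 genes, and 0 were lower, against 3.83%. The ratios ran from 4.19-fold for KLK5 to 18.1-fold for KLK7, with 16.5-fold for KLK10 and 13.3-fold for SERPINB13. Of those 8, 5 reached 1 in only 1 of the lines. Among them KLK5, KLK7, KLK10 and SERPINB13 were under 1 in RWPE1-ERG, so part of their difference is built into the filter. The count is a description. The ratios of KLK7 and KLK10 divide by an FPKM of 0.0803 and 0.147. With a pseudocount of 1 their log2 ratios fell from 4.18 to 1.18 and from 4.04 to 1.58. SERPINB2 was 1.39-fold lower and KLK6 1.29-fold higher. The 4 comparisons share lines, so their ratios are not independent of each other.

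**Figure D2:**
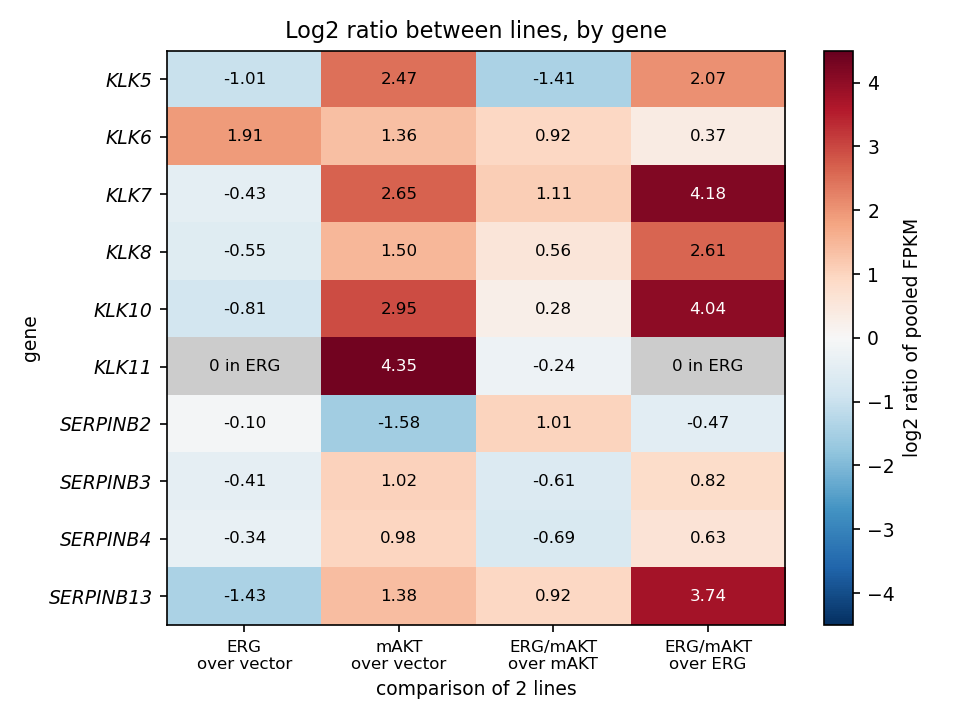
Log2 ratio of pooled FPKM for each of the 10 genes (rows) in 4 comparisons of lines (columns), red higher and blue lower in the first-named line, grey where KLK11 is listed at 0 in RWPE1-ERG. The second column is above 0 for every gene but SERPINB2 (-1.58), and the first is below 0 for every gene with a value but KLK6 (1.91).

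The ERG ratio had a different sign without and with mAKT for 5 of the 9 members that could be compared. Of the 8 that also reached an FPKM of 1 in at least 1 line (all but SERPINB4), these were 5, against 43.2% of the 12455 genes above 0 in every line and at 1 or more in at least 1, so a change of sign by itself was common. All 5 went from lower to higher, as did 15.4% of those genes. SERPINB13 had a log2 ratio of -1.43 without mAKT and 0.92 with it, a difference of 2.35. KLK7 went from -0.43 to 1.11, KLK8 from -0.55 to 0.56, KLK10 from -0.81 to 0.28 and SERPINB2 from -0.10 to 1.01. These 4 differences were 1.09 to 1.53. KLK6 was higher with ERG in both settings, at 1.91 and 0.92. KLK5 was lower in both, at -1.01 and -1.41. SERPINB3 was also lower in both, as were the low values of SERPINB4. None of these differences was tested, because the table pools libraries. Over the same 12455 genes a difference of 1 or more upward was found for 2.38% and downward for 3.38%, and a change from lower without mAKT to higher with it that also reached 1 was found for 1.69%. Of the 8 members 5 met the first and the last of these rules and 0 the second, with KLK6 at -0.99 just outside it. With a pseudocount of 1 only SERPINB13 of these 5 stayed at 1 or more, at 1.59, and the other 4 were at 0.33 to 0.92. Of the 5, KLK7 and KLK10 reached an FPKM of 1 only in lines with mAKT, so they were counted through lines where they were high.

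**Figure D3:**
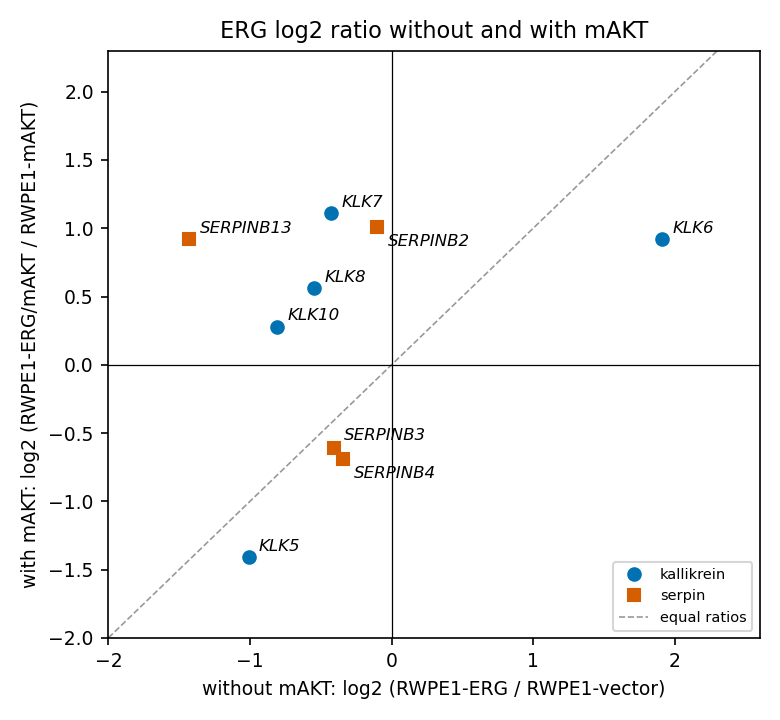
Each point is a gene, with the log2 ratio of pooled FPKM for ERG without mAKT on the x axis and with mAKT on the y axis; the dashed line marks equal ratios and no error is available. The 5 genes in the upper left, KLK7, KLK8, KLK10, SERPINB2 and SERPINB13, are lower with ERG alone and higher with ERG in cells with mAKT.

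In RWPE1-mAKT over RWPE1-vector, 6 of 10 counted genes of the cornified envelope, the protein shell of squamous cells, were 2-fold or more higher, against 1.60% of all genes, and 0 lower. Of those 6, 5 (IVL, SPRR1A, SPRR2A, SPRR2D and SPRR3) were under 1 in RWPE1-vector and were counted only because RWPE1-mAKT reached 1, so the count is a description. The precursor SPRR1B had an FPKM of 6.47 in RWPE1-vector, 1.48 in RWPE1-ERG, 45.9 in RWPE1-mAKT and 74.8 in RWPE1-ERG/mAKT, and involucrin (IVL) had 0.260, 0.791, 1.64 and 4.43. LOR, a late envelope protein, was listed at 0 in every line. Of 4 counted kallikrein inhibitors 0 differed by 2-fold with mAKT alone, where 1.60% of all genes were higher and 1.35% lower. With ERG and mAKT together over mAKT 2 were higher, against 3.08% of all genes, PI3 (elafin) at 107 against 49.6 and SLPI at 165 against 69.1. SPINK5, the inhibitor of KLK5 and KLK7 that is lost in Netherton syndrome, was under 1 in every line, at 0.108 to 0.999. Of 3 counted kallikrein activators and substrates, among them the membrane protease matriptase (ST14, FPKM 41.4 to 56.9), 0 differed by 2-fold in any of the 4 comparisons. The same held for 4 counted serpin targets, among them urokinase (PLAU, 23.6 to 32.6), the protease that SERPINB2 inhibits. In these comparisons 1.35% to 5.16% of all genes passed 2-fold in a given direction, so 0 of 3 or 4 is near that share. Of the other clade B serpins, SERPINB7 was higher with mAKT, with 1.02, 0.838, 3.51 and 3.02, while SERPINB5 (maspin) had 200, 120, 181 and 169.

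Among 9311 genes outside the members that reached an FPKM of 5 in some line, those with the 4-line profile most like the mean of the kallikreins were TSPAN13, LYPD3, LINC01503, TNFAIP2 and CXXC5. Likeness was the root mean square difference of centred log2(FPKM + 1) values, from 0.057 for TSPAN13 to 0.114 for CXXC5. TSPAN13 had an FPKM of 11.4, 10.7, 19.7 and 21.9. For the serpins they were SLC20A2, CROCC, MTUS1, TKT and WIZ, at 0.030 to 0.047, but the mean serpin profile averages genes that differ in direction and is shallow, from -0.33 in RWPE1-ERG to 0.34 in RWPE1-ERG/mAKT.

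The members lie in 2 gene clusters where neighbours share windows and peaks, so they are not independent. Counts of peaks near them, here and below, are a description. The RWPE1-ERG/mAKT list of 9113 ERG peaks held 1 peak within 20 kb of a member, which touched the windows of 2 of 10 genes (SERPINB3 and SERPINB4), where 30.2% of all genes had one. The VCaP list of 6143 peaks held 0, against 21.3% of genes. The single peak lay at chr18:61315037-61315145 (hg19), 3.5 kb upstream of the SERPINB4 start and 7.3 kb from the 3′ end of SERPINB3, inside the span that GENCODE gives SERPINB11. Its fold enrichment was 3.53 and its −log10 q-value 0.15, so it would not pass a q-value of 0.01, and it ranked 3760th by p-value. No ATAC-seq peak of the 3 lists overlapped it. Its sequence is shown because it is the only ERG peak near a member, with the ETS core in capitals.
ERG peak, chr18:61315037-61315145, plus strand: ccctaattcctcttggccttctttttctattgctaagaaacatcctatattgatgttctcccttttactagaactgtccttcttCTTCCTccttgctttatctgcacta
The AGGAAG core, read here on the other strand, lay outside the 101 bases around the summit. In the 101 bases around the summit of all ERG peaks of that list, 14.5% held AGGAAG. The nearest ERG peaks to KLK5 were 279.5 kb away in RWPE1-ERG/mAKT and 62.5 kb away in VCaP.

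ERK2 was listed at 3 places near the kallikreins in RWPE1-vector, within 20 kb of 4 members, against 68.2% of all genes. The strongest, chr19:51435374-51435579, had a fold enrichment of 4.31 and a −log10 q-value of 0.90. It lay downstream of KLK5 inside an ATAC-seq peak present in all 3 lists, with fold enrichments of 12.2, 10.2 and 9.44. In RWPE1-ERG the ERK2 list was shorter (5721 against 41276 peaks) and held 0 near a member, against 24.2% of genes.

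Open chromatin was listed near all 10 members in each line, against 88.4% of all genes in RWPE1-ERG, 87.3% in RWPE1-mAKT and 83.1% in RWPE1-ERG/mAKT. At gene starts the members differed from one another. An ATAC-seq peak lay within 1 kb of the start of 5 members in RWPE1-ERG, 6 in RWPE1-mAKT and 3 in RWPE1-ERG/mAKT, against 57.9%, 56.8% and 52.6% of the 21697 genes with a strand. KLK6 and SERPINB13 had a start peak in all 3 lists, with fold enrichments for KLK6 of 8.41 in RWPE1-ERG, 7.04 in the mAKT line and 5.64 in the line with both. For SERPINB13 they were 7.06, 4.74 and 6.86 in the same order, at chr18:61253761-61254556 in RWPE1-ERG, over the start of the promoter shown above. KLK7, SERPINB2, SERPINB3 and SERPINB4 had none in any list. The nearest site to the SERPINB2 start in all 3 lists lay 5.1 kb upstream, with fold enrichments of 10.0, 9.07 and 8.23. GENCODE starts SERPINB2 at 61538926, so that site lies inside the gene as GENCODE spans it.

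KLK5, highest in RWPE1-mAKT, had a start peak in RWPE1-ERG (5.90) and RWPE1-mAKT (5.50) and none in RWPE1-ERG/mAKT, where its FPKM was 1.46. For KLK8 the start of the locus used here was covered only in RWPE1-mAKT, by chr19:51504523-51506209 (4.81). The other lists had a shorter peak about 1 kb upstream of that start. GENCODE places the KLK8 start at 51505967, and a peak of each list overlapped that position, so the difference depends on the start taken. KLK10 was covered over its start in RWPE1-mAKT by chr19:51521943-51523553 (3.07), and RWPE1-ERG had a peak in the same stretch, farther than 1 kb into the gene (3.04), and another about 1 kb upstream of the start (3.22). KLK11 had a peak from 400 bases downstream of its start in RWPE1-mAKT, chr19:51529733-51530890 (3.65), and in no other list. A RefSeq promoter of KLK11, chr19:51529823-51530122, lies inside that peak, so its place relative to the KLK11 start also depends on the start taken. In RWPE1-ERG/mAKT, where KLK10 had a like FPKM, no peak was listed within 1 kb of its start. The RWPE1-ERG/mAKT list was also the shortest, with 42081 peaks against 63354 in RWPE1-ERG and 57999 in RWPE1-mAKT. The kallikreins had 12 peaks within 20 kb in RWPE1-ERG, 12 in RWPE1-mAKT and 5 in RWPE1-ERG/mAKT, and 5, 7 and 4 when the 33000 peaks of lowest p were taken from each list, so list length moves with this difference.

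**Figure D4:**
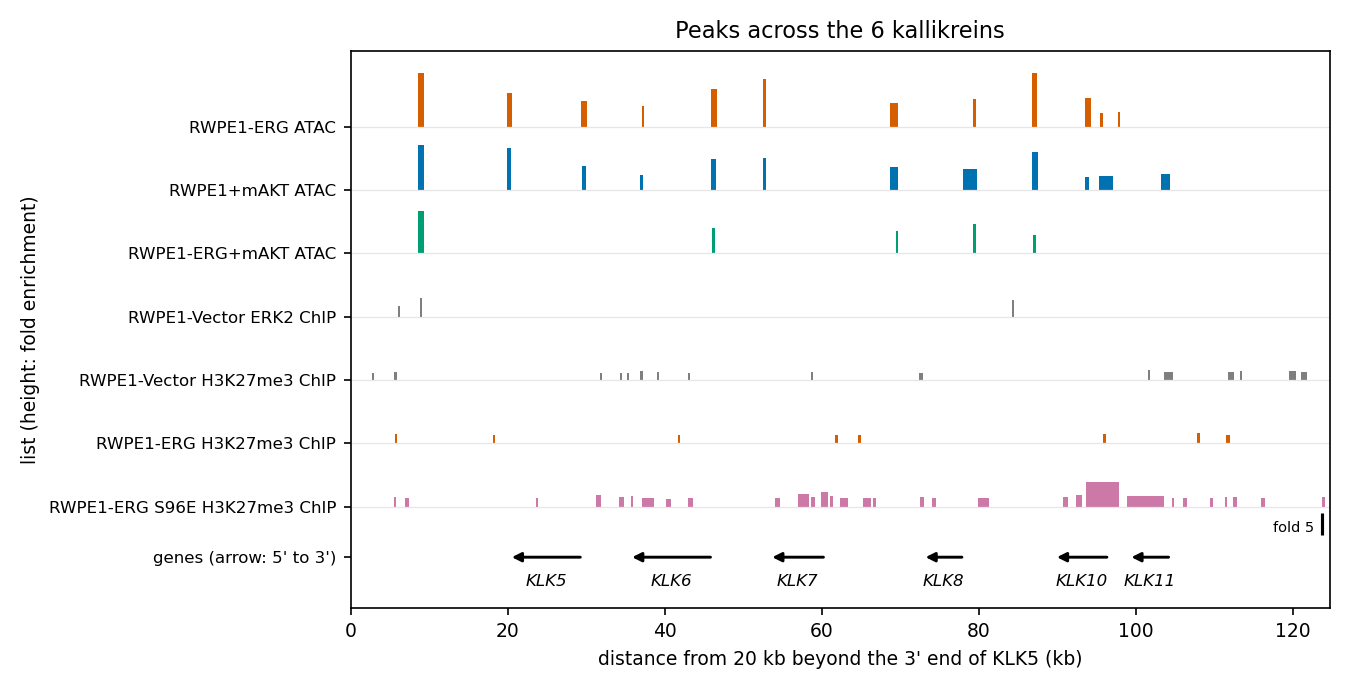
Peaks from 7 lists across the stretch from 20 kb beyond KLK5 to 20 kb before KLK11 (x axis in kb, block height the fold enrichment, scale bar 5), with the genes as arrows. RWPE1-ERG/mAKT has the fewest ATAC-seq blocks, 5, and the widest H3K27me3 blocks are those of RWPE1-ERG S96E at KLK10 and KLK11.

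H3K27me3 regions covered more of the kallikrein stretch in RWPE1-ERG S96E than in the other lines. Over the 124.7 kb from 20 kb beyond KLK5 to 20 kb beyond KLK11, listed regions covered 4.65% in RWPE1-vector, 1.71% in RWPE1-ERG and 19.9% in RWPE1-ERG S96E. The median window around a gene was covered at 5.33%, 1.49% and 3.02% in the same lists. Cover was thus below the median in RWPE1-vector, slightly above it in RWPE1-ERG and above it in S96E. The stretch is 1 merged span while the medians are of single-gene windows, so the measures differ. Taken by single-gene window in S96E, 70.4% (KLK5) to 90.1% (KLK10 and KLK11) of all genes had lower cover than the kallikrein. Over the 356.6 kb of the serpins cover was 2.42%, 0.652% and 0.830%, below those medians in each. Within 20 kb of a member a region was listed for 9, 9 and 8 of 10 genes, against 95.9%, 72.6% and 77.0% of all genes, and in the gene body for 5, 4 and 6, against 75.9%, 42.3% and 45.0%. The RWPE1-vector list was the longest, with 492265 regions against 228233 and 252784, and with the same number of regions of lowest p from each list the gene body counts were 2, 4 and 6. The 6 in S96E were the 6 kallikreins.

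In RWPE1-ERG S96E the cover of the gene body was 81.1% for KLK11, 59.7% for KLK10, 40.4% for KLK7, 26.0% for KLK6, 11.5% for KLK8 and 2.23% for KLK5. Of the 31 regions listed over the kallikrein stretch there, 1 passed a q-value of 0.01, and of the members it overlapped only KLK10. The cover of the other kallikreins thus rests on regions that did not pass that limit. The share of all genes with such gene body cover was not taken. In RWPE1-vector the highest was 21.7%, for KLK11, and in RWPE1-ERG no kallikrein exceeded 3.08%. The strongest region, chr19:51520199-51524406, ran for 4208 bases over the KLK10 start and the KLK10 promoter shown above, with a fold enrichment of 5.54 and a −log10 q-value of 6.77. By p-value it ranked 724th of 252784. The strongest near the kallikreins in RWPE1-vector and RWPE1-ERG had fold enrichments of 2.19 and 2.28 and −log10 q-values of 0.00 and 0.02. Depth, tag size and input moved with this comparison: the S96E library had 26454542 reads against 19444504 and 16513053. Its tag size was 74 bases against 84 in the other lists, and its input had 19065760 reads against 15679418 and 9675359. In S96E 3413 regions passed a q-value of 0.01 against 29 and 39 in the other lists. The part of depth, tag size and input was not tested. No mRNA value of the S96E line was used here, and each H3K27me3 list comes from 1 library.

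**Figure D5:**
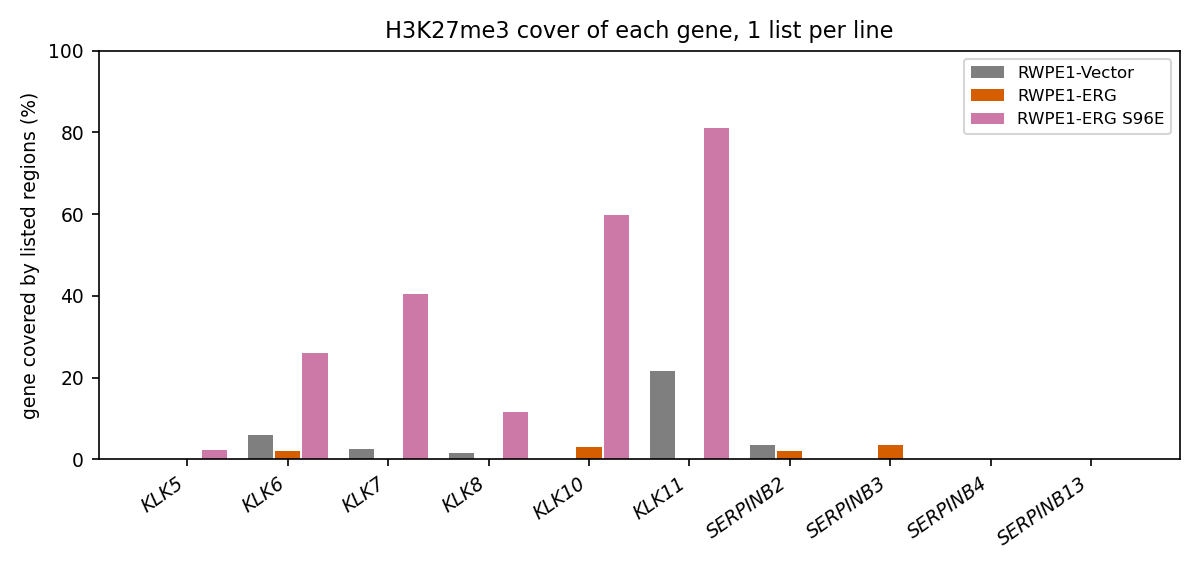
Share of each gene body covered by listed H3K27me3 regions (%, bars from 0) in 3 lines, 1 list per line with no error available. The RWPE1-ERG S96E bars of KLK10 and KLK11 reach 59.7% and 81.1%, and the 4 serpins have 0% in that list. Of the S96E regions near the kallikreins, 1 passes a q-value of 0.01, and of the members it overlaps only KLK10.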

How the data were processed

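No sequencing reads were used. Per the labels and the study's methods, poly(A) RNA was aligned with TopHat2 and compared with Cuffdiff, and the deposited table gives an FPKM for each of 4 lines, pooled by the authors over 3 libraries, with 0 columns of single libraries. The table's own log2 fold changes and test results were not used. The ChIP-seq (Bowtie2, hg19; MACS2 2.1.2 or 2.2.7.1) and ATAC-seq lists give the authors' fold enrichment (a ratio to background) and −log10 p-values and q-values. ChIP material was pooled from 3 experiments, ATAC-seq lists had no input, and read depth of the RNA libraries and of 2 of the ATAC-seq lists is unknown. Lists that did not carry the name of their sample were not used, and RWPE1-vector ATAC-seq was not analysed here.

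Ratios were taken without a pseudocount among genes with an FPKM of 1 or more in either line, and 2-fold was the limit. Peaks were assigned within 20 kb of a gene's locus and within 1 kb of its start, with 1 bp of overlap, and strand from GENCODE 44 on GRCh37. The table's start positions count from 0 and were raised by 1. Symbols on more than 1 locus (2) were left out. Genes named were all members, the other genes of lists of kallikreins, serpins, inhibitors, activators, substrates, targets and cornified envelope genes, and the 5 genes of most like profile for each family. The members and lists were chosen with earlier results of these data known. Alternatives changed the fold, pseudocount, filter, centring, window, q-value limit and list length. The code (Python 3.11.15, pandas 2.3.3, numpy 2.4.6) was tested on simulated data. A cell type marker that was measured is not reported here.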

Additional observations from a re-analysis of the deposited data

Results flagged for a closer look

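The ERG ratio had opposite signs without and with mAKT, and differed by 1 or more on the log2 scale, for 5 of the 8 members that could be set against all genes, where 3.65% of 12455 genes met both conditions. The difference, with minus without mAKT, was 2.35 for SERPINB13, 1.53 for KLK7, 1.11 for KLK8, 1.11 for SERPINB2 and 1.09 for KLK10. The values are pooled over 3 libraries, so whether each library moved that way is not known and the difference was not tested. For SERPINB2 the ratio without mAKT was -0.10, close to 0. KLK7 had an FPKM of 0.108 and 0.0803 without mAKT and KLK10 0.259 and 0.147, so that part of their differences rests on values under 1. With a pseudocount of 1 only SERPINB13 kept a difference of 1 or more, at 1.59.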

How the results depend on the processing

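No paired analysis was possible because the deposited expression values are pooled per line and carry no replicate; for the same reason no library could be left out. Of 138 alternative values for the main results, 43 moved by more than 1.5 times and 0 reversed, and 0 of 114 for single genes reversed. Counts could only stay or move, and a pseudocount cannot change the sign of a gene's ratio. The 0 reversals were therefore largely fixed in advance and add no support. With a fold of 1.5, ERG/mAKT over mAKT gave 4 members higher and 2 lower. With a fold of 3, members lower fell to 0 in ERG over vector, mAKT over vector and ERG/mAKT over mAKT, members higher to 2 in mAKT over vector and to 0 in ERG/mAKT over mAKT. With a pseudocount of 1 both counts were 0 in ERG over vector and in ERG/mAKT over mAKT. The median of ERG/mAKT over ERG was then 1.03. The difference of the ERG ratio was -0.33 for KLK6, 0.59 for KLK7, 0.81 for KLK8 and 0.33 for KLK10. It was 0.92 for SERPINB2 and 1.59 for SERPINB13, so of these only SERPINB13 stayed at 1 or more. With 0.1 ERG/mAKT over mAKT gave 1 higher. Without a filter 2 were lower in ERG over vector. With an FPKM of 5 in either line, both counts were 0 in ERG over vector, 2 were higher in mAKT over vector, 1 higher and 0 lower in ERG/mAKT over mAKT, and 2 higher in ERG/mAKT over ERG. Centred, ERG/mAKT over mAKT gave 4 higher. With a mean FPKM of 1, added after seeing the data, 2 were lower in ERG over vector and 1 higher in ERG/mAKT over mAKT. A q-value of 0.01 left 0 members with an ERG, a vector ERK2, or a vector or RWPE1-ERG H3K27me3 region, and 3 in S96E. Members near a vector ERK2 peak were 2 at 10 kb and 7 at 50 kb. With 10% of the gene covered, H3K27me3 marked 1 member in RWPE1-vector and 0 in RWPE1-ERG. With lists of equal length, added after seeing the data, it marked 2 in RWPE1-vector. With the 33000 strongest ATAC-seq peaks, also added later, start peaks were 2 in RWPE1-ERG and 3 in RWPE1-mAKT, peaks near kallikreins 5 and 7, and peaks near serpins 3 and 4. Where values changed, the cause was not tested, beyond fewer genes or peaks being kept.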
